A study of Homo sapiens with 12 samples.

Results

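The antiviral interferon-stimulated genes (ISGs) described here are a list of 47 genes chosen by name and role: the OAS, IFIT, IFITM and MX families, ISG15 and the enzymes of its conjugation, antiviral TRIM and PARP proteins, and further genes that interferon induces. All 47 were found on the arrays by gene symbol, among 19775 genes with a probe set of their own, and each was read from the probe set with the highest mean signal. After the filter on low signals 46 of them were among the 13959 genes tested. EPSTI1, whose signal lay between 37.8 and 320.1, was not tested.

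RNA was measured on 12 Affymetrix arrays from U937 cells, a human myeloid leukaemia line of monocytic character, after electroporation of a plasmid and sorting of the GFP-positive cells. PRWT cells had received GFP with wild-type PML-RARA, the fusion oncoprotein of acute promyelocytic leukaemia, and PR2VR cells had received GFP with PR2VR, a second form of PML-RARA whose own label also reads wild type, in a series whose title speaks of a protease-resistant form. GFP cells had received the plasmid for GFP alone. Each construct was sampled at 9 h and at 6 h, with 2 arrays for each construct and hour, numbered 1 and 2. Sample titles count the hours of the PRWT and PR2VR cells from infection and those of the GFP cells from transfection, so any difference in procedure behind those words cannot be told apart from the fusion itself. All cells carried a transfected plasmid, no untransfected cells were among the samples, and the labels do not say whether replicates were separate transfections, so the p-values speak of the spread between arrays of a group, and that spread may be a technical one.

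ISGs are switched on when a cell senses foreign nucleic acid or is exposed to interferon. Type I and type III interferons act through their receptors on JAK kinases, and the signal ends at interferon-stimulated response elements in the promoters of the target genes. The proteins made from these genes sense or degrade viral RNA, block its translation, hinder entry and budding of viruses, or tag proteins with the ubiquitin-like ISG15.

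The letters of the response element were common in the promoters of these genes. RefSeq promoter sequences (GRCh38.p14, 250 bases before to 50 after a transcript start) were at hand for 40 of the 47 genes. The core, which is GAAA, any 2 bases and GAAA again, was searched on both strands. It was found for 31 of the 40 genes (77.5%), against 4.38% of the 27305 genes with such sequences. The gamma-activated site TTCNNNGAA, also searched on both strands, was found for 11 of the 40 genes (27.5%), against 9.38% of all genes. Counted for each transcript start, there were 56 matches to the core, at 51 distinct sites. Of the 56, 53 lay before the start, 45 of them within 150 bases of it. Of the 51 sites, 6 overlapped a gamma-activated site match. A match of letters is a description and shows no binding. OAS1, ADAR, SAMD9L, UBE2L6, HERC6, TRIM25, CMPK2, IFI35 and XAF1 had no match in these windows, and the promoters of OAS2, OASL, IFIT2, IFITM2, MX2, USP18 and TRIM22 were not analysed here.

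The matches below belong to genes on which the results turn, each with its surrounding bases, read 5′ to 3′ on the coding strand of the gene, with the core in capitals (TTTC at its start means the core lies on the other strand). They lie at chr15:88638927-88638976 (ISG20), chr3:187368323-187368372 (RTP4), chr1:1013364-1013413 (ISG15), chr3:122680790-122680839 (PARP14), chr10:89392487-89392536 (IFIT1), chr14:94110608-94110657 (IFI27) and chr4:17576995-17577044 (LAP3), all of GRCh38.p14 and all of genes on the plus strand.
ISG20: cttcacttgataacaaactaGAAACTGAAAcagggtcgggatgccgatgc
RTP4: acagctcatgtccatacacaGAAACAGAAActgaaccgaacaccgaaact
ISG15: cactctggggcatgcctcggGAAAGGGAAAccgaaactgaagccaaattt
PARP14: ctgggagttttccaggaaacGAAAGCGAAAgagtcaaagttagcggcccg
IFIT1: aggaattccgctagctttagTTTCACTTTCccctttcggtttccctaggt
IFI27: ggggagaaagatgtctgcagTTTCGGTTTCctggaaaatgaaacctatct
LAP3: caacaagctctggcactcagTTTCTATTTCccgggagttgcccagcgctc

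PARP9 and DTX3L, neighbours that run in opposite directions and overlap at their starts, share 1 match close to both starts, at chr3:122564312-122564361, shown on the strand of each gene.
PARP9: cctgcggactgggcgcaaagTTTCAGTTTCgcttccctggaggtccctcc
DTX3L: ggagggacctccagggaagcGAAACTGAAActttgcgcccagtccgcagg

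Values below are MAS5 signals on a linear scale, and differences and levels called log2 are of log2(signal + 62.5), which understates the change of dim genes. A set is the PRWT, PR2VR and GFP array of the same hour and number. Deviations from the group means ran together within sets, so each comparison of constructs was fitted without and with the set as a block. Genes passed at a Benjamini-Hochberg adjusted p under 0.05 over all 13959 genes in limma. Signals of different genes come from different probe sets and are not compared.

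The arrays carried what their labels say as far as could be read. Signal of the RARA probe set lay between 9281 and 58985 on the 8 fusion arrays, against 48.2 to 309.2 on the 4 GFP arrays (log2 difference 7.52 ± 0.47 SE, limma adjusted p = 8.2e-06). Of 13 U937 marker genes with a probe set, 11 were above the filter, and SPI1 and CD14 were not. Of other cell types, 3 of 7 T cell markers and 2 of 4 plasmacytoid dendritic cell markers were above it. So were 2 of 2 erythroid and 4 of 7 epithelial and fibroblast markers. Each of these lists summed to between 322.7 and 4344 on any array. All 4 B cell markers were above the filter and summed to 4310 to 11492 in PRWT cells, 4864 to 6880 in PR2VR cells and 3662 to 17696 in GFP cells. Among these 4, PAX5 ran from 2166.5 to 16215.1, while MS4A1 reached at most 511.4, CD79A 1997 and CD79B 970.6. Every array had a trimmed mean of 1500.2. The 3 arrays of 9 h number 2 stood apart on the first principal component (59.8 to 77.7, against -36.4 to -7.31 on the other arrays) and had the lowest GAPDH 3′ to 5′ ratios (2.21 to 2.75, against 3.82 to 12.9), a measure of RNA degradation. PR2VR 6 h number 1 stood apart on the second component (65.2) and had the lowest mean correlation with the other arrays (0.901).

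Most of the antiviral genes were bright on every array, including those of cells with GFP alone. Their median level (log2) was 13.84 and 14.11 at 9 h and 13.08 and 14.00 at 6 h in PRWT cells. In PR2VR cells it was 13.90 and 13.85 at 9 h and 12.37 and 14.01 at 6 h. In GFP cells it was 14.32 and 14.38 at 9 h and 13.36 and 14.21 at 6 h. At either hour and number the GFP array had the highest median of its set. The median of all genes tested stayed between 10.45 and 10.81 on all arrays. The 3 arrays of 6 h number 1 had the lowest medians of their constructs, and PR2VR 6 h number 1 the lowest of all.

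**Figure D1:**
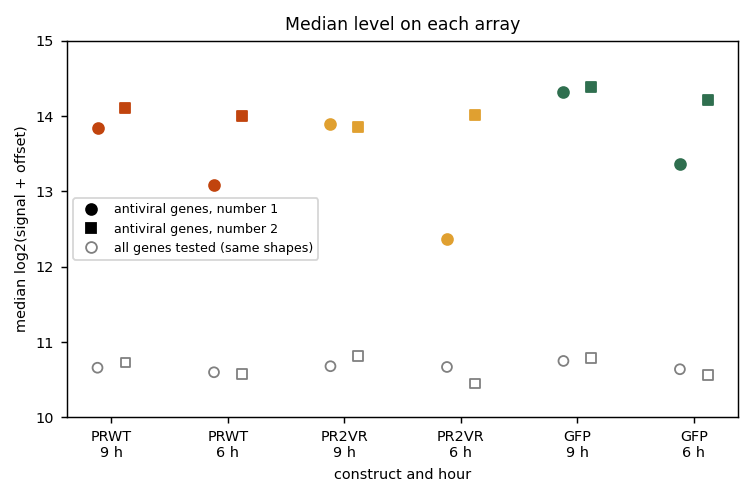
Median log2(signal + 62.5) of the 46 antiviral genes tested (filled symbols, coloured by construct) and of all 13959 genes (open grey symbols) on each array, by construct and hour, with circles for number 1 and squares for number 2. In each set the GFP array is above both fusion arrays, and PR2VR 6 h number 1 is lowest at 12.37.

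The array on which a gene was highest was a GFP array for 35 of the 46 genes (76.1%), against 31.3% of all genes tested. It was a PRWT array for 9 genes (32.1% of all genes) and a PR2VR array for 2 (36.7%). GFP 9 h number 2 held the highest value of 18 genes (16.2%) and GFP 6 h number 2 that of 13 (4.67%). PR2VR 6 h number 1 held the lowest value of 30 of the 46 genes, against 14.6% of all genes.

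**Figure D2:**
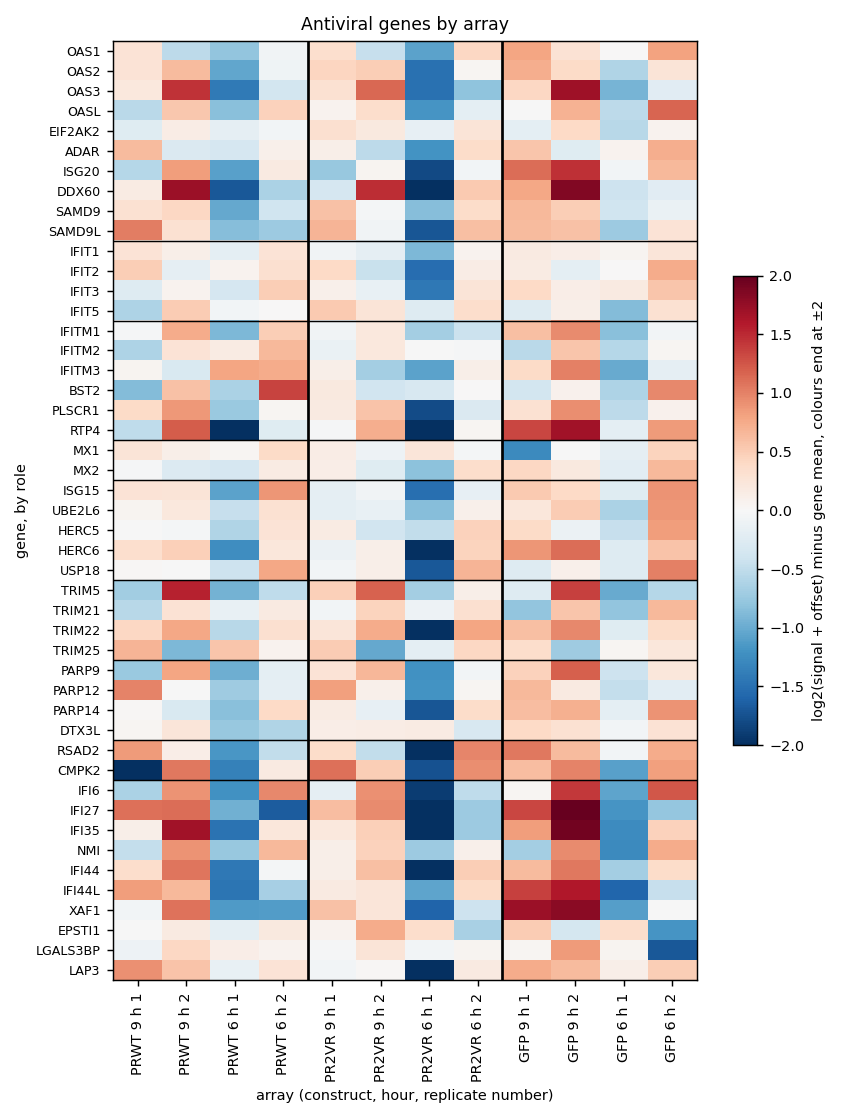
Level of all 47 genes on the 12 arrays as log2(signal + 62.5) minus the gene's mean, with genes grouped by role down the page, constructs separated by vertical lines and colours ending at ±2. GFP arrays of 9 h and of 6 h number 2 are mostly red, and the column of PR2VR 6 h number 1 is mostly blue.

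Whether PML-RARA cells differed from GFP cells was asked first over both forms and both hours. Antiviral genes were lower in fusion cells on balance, by a small amount that differed from gene to gene. The difference was below 0 for 37 of 46 genes (52.4% of all genes tested), with a median of -0.36 (log2), against -0.02 over all genes. Without the block 0 members passed (0.00716% of all genes, which was RARA alone) and 3 had an unadjusted p under 0.05 (3.14%). With the block 1 member passed, ISG20, which was lower (0.315% of all genes), and 16 had an unadjusted p under 0.05, all lower in fusion cells (8.4%). In bulk RNA fewer responding cells and less RNA of a gene per cell cannot be told apart.

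Within sets the same lean was seen 4 times. The median of the 46 differences was -0.31 and -0.28 in the 9 h sets and -0.52 and -0.28 in the 6 h sets, with 33, 42, 34 and 34 genes below 0. Over all genes tested the medians were -0.04 and -0.03 at 9 h and 0.05 and -0.03 at 6 h. Of all genes 54%, 52.9%, 46% and 52.8% were below 0 in these sets. Fusion cells were below GFP cells in 4 of 4 sets for 25 members (10.7% of all genes tested). They were above GFP cells in 4 of 4 sets for 0 members (9.23%). At 9 h all 4 fusion arrays were below both GFP arrays for 13 members (6.28%), and at 6 h for 0 members (4.27%).

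**Figure D3:**
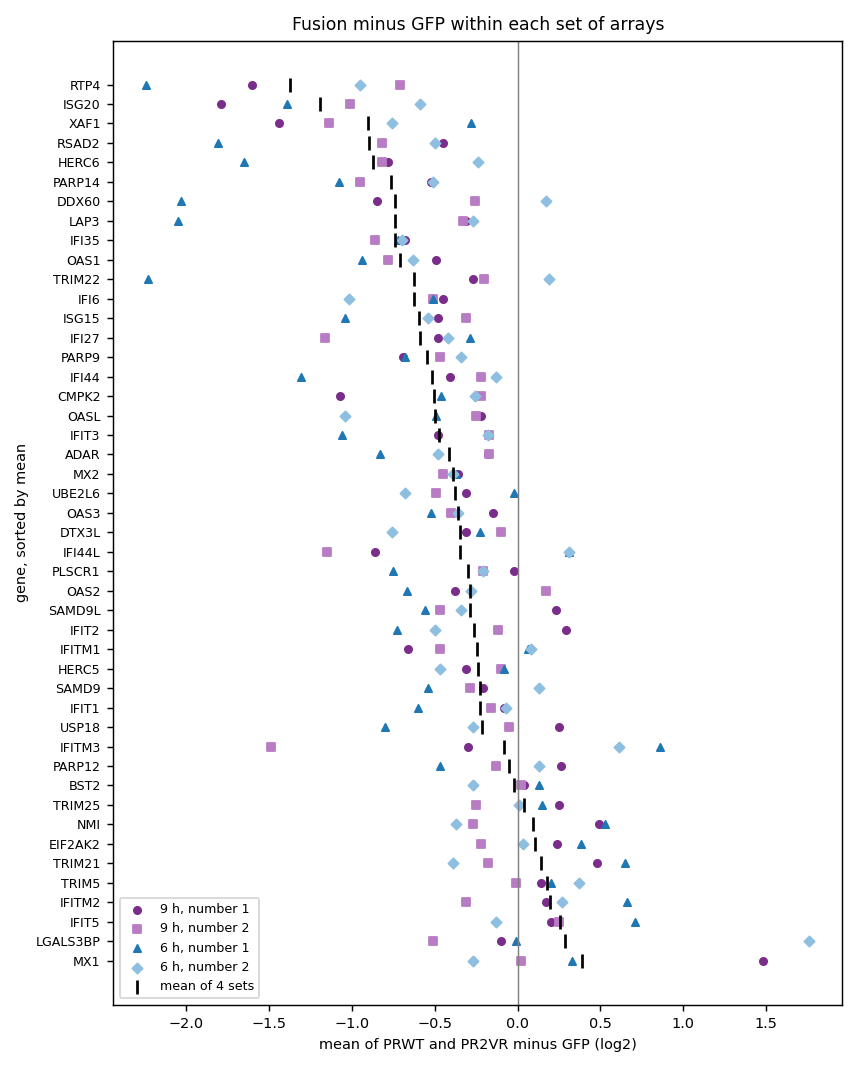
Log2 difference between the mean of PRWT and PR2VR and the GFP array of the same set, for each of the 46 genes tested, sorted by their mean (black bar), with a symbol for each of the 4 sets. Most symbols lie left of 0, RTP4 and ISG20 have the lowest means, and the 6 h number 1 set holds several of the lowest points.

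The RNA-sensing and RNA-degrading enzymes held the 1 member that passed. ISG20, a 3′ exonuclease that degrades single-stranded RNA, had signals of 8081 and 21576 at 9 h and 5643 and 13662 at 6 h in PRWT cells, 7079 and 12459 at 9 h and 3411 and 11633 at 6 h in PR2VR cells, against 26282 and 33146 at 9 h and 11638 and 18993 at 6 h in GFP cells. The GFP array was the highest of every set, and at 9 h the groups did not overlap. ISG20 was lower in fusion cells by -1.20 ± 0.39 SE without the block (adjusted p = 1) and ± 0.20 with it (limma adjusted p = 0.04). A second ISG20 probe set differed by -1.34. Its adjusted p with the block was 0.013 without PR2VR 6 h number 1, 0.0052 without PR2VR 6 h number 2, and between 0.088 and 0.51 without any of the other 10 arrays, so the call rests on each of those.

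OAS1, which makes the 2-5A that activates RNase L once it meets double-stranded RNA, had signals of 14074 and 8046 at 9 h and 6702 and 11056 at 6 h in PRWT cells, 14686 and 8397 at 9 h and 5512 and 15534 at 6 h in PR2VR cells, against 20212 and 14174 at 9 h and 11684 and 20277 at 6 h in GFP cells. In each set the fusion arrays were below the GFP array. The log2 difference was -0.71 ± 0.17 SE with the block (adjusted p = 0.15). OAS3, its neighbour on chromosome 12 and the largest of the family, had signals of 7084 and 16806 at 9 h and 2247 and 4738 at 6 h in PRWT cells, 7578 and 13586 at 9 h and 2142 and 3487 at 6 h in PR2VR cells, against 8161 and 19943 at 9 h and 3183 and 5219.5 at 6 h in GFP cells. It differed less between constructs (-0.36 ± 0.16 SE with the block, adjusted p = 0.60) than between hours, as given below. OAS2 (-0.29) and OASL (-0.50) were on the same side of 0.

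ADAR, which converts adenosine to inosine in double-stranded RNA, had signals of 69002 and 36398 at 9 h and 35390.5 and 47960.1 at 6 h in PRWT cells, 48528 and 30844 at 9 h and 19319.7 and 57711 at 6 h in PR2VR cells, against 65709 and 37761 at 9 h and 46686 and 73382 at 6 h in GFP cells. The fusion mean was below GFP in every set, by -0.42 ± 0.17 SE (adjusted p = 0.52 with the block). EIF2AK2, the kinase PKR that halts translation on sensing double-stranded RNA, had a difference of 0.11 and was the only gene of these 10 above 0. DDX60 (-0.74), SAMD9 (-0.23) and SAMD9L (-0.29) did not pass, and the DDX60 signal was 462.8 on PR2VR 6 h number 1, against 1418 or more on every other array. In the group as a whole 9 of 10 genes were below 0, with a median of -0.39.

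The IFIT proteins, which bind viral RNA that lacks the host's cap methylation, were bright, and none of the 4 genes passed. IFIT1 had signals of 139521 and 124199 at 9 h and 99983 and 138929.8 at 6 h in PRWT cells, 108989.5 and 101715 at 9 h and 61560.3 and 120614 at 6 h in PR2VR cells, against 130583 and 125886 at 9 h and 119048 and 136052 at 6 h in GFP cells. IFIT3, which stabilises IFIT1, had signals of 90978 and 114625 at 9 h and 86734 and 153202 at 6 h in PRWT cells, 116768 and 97942 at 9 h and 40419 and 130437 at 6 h in PR2VR cells, against 143835 and 119475 at 9 h and 123353 and 160448 at 6 h in GFP cells. For both, PR2VR 6 h number 1 was the lowest array, and IFIT1 lay within a narrow range on the GFP arrays. The log2 differences were -0.23 ± 0.14 SE for IFIT1 (adjusted p = 0.70) and -0.47 ± 0.18 SE for IFIT3 (adjusted p = 0.48), both with the block. IFIT2 stood at -0.27, with -0.88 at a second probe set, and IFIT5 at 0.26, with -0.05 at a second one.

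Among the membrane factors RTP4 stood out. RTP4, a transmembrane receptor transporter protein that limits viral replication, was dim, with signals of 407 and 1482 at 9 h and 71.7 and 499.7 at 6 h in PRWT cells, 596 and 1046 at 9 h and 50.8 and 621 at 6 h in PR2VR cells, against 1621 and 2079.8 at 9 h and 519.9 and 1136 at 6 h in GFP cells. It was at 71.7 or lower on both fusion arrays of 6 h number 1, and both forms were below GFP in every set. The log2 difference was -1.37 ± 0.54 SE without the block (adjusted p = 1) and ± 0.29 with it (adjusted p = 0.10).

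IFITM3, which blocks the fusion of viruses in endosomes, had signals of 14525 and 11386 at 9 h and 24284 and 23607 at 6 h in PRWT cells, 15217 and 8756 at 9 h and 6671 and 15245 at 6 h in PR2VR cells, against 18331 and 28255 at 9 h and 6982 and 12443 at 6 h in GFP cells. At 9 h all fusion arrays were below both GFP arrays, by -0.90 ± 0.32 SE, and at 6 h the fusion mean was above GFP, by 0.73 ± 0.32 SE (with the block, adjusted p = 0.67 and 0.86). IFITM2 had signals of 18468 and 34146 at 9 h and 31796 and 44088 at 6 h in PRWT cells, 25820.2 and 32648 at 9 h and 28243 and 27747 at 6 h in PR2VR cells, against 19383 and 41535 at 9 h and 18960.2 and 28966 at 6 h in GFP cells. No array or construct stood apart for IFITM2 (0.20, adjusted p = 0.82 with the block). The probe sets of IFITM2 and IFITM3 are of the kind that can bind other transcripts of like sequence, so reads of this family are uncertain.

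PLSCR1, a phospholipid scramblase that restricts entry, had signals of 35418 and 49489 at 9 h and 16166 and 27985 at 6 h in PRWT cells, 30694 and 40386 at 9 h and 7794 and 22184 at 6 h in PR2VR cells, against 33477 and 51836 at 9 h and 18953 and 28907 at 6 h in GFP cells. It was at -0.30 ± 0.16 SE with the block (adjusted p = 0.66), with the PR2VR array below the PRWT array in all 4 sets. IFITM1 (-0.24) and BST2 (-0.02), the tether that holds budding virions, were nearer 0. Of the 6 genes of this group 5 were below 0, with a median of -0.16.

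MX2 and MX1, the dynamin-like GTPases, lay on opposite sides of 0, and neither passed. MX2, which restricts the nuclear import of HIV-1, had signals of 33114 and 27861 at 9 h and 26669.5 and 37985 at 6 h in PRWT cells, 36812 and 28631 at 9 h and 19106 and 42927 at 6 h in PR2VR cells, against 44939 and 38499 at 9 h and 29278 and 52917 at 6 h in GFP cells. Both fusion forms were below GFP in all 4 sets, by -0.39 ± 0.14 SE over both (adjusted p = 0.45 with the block). MX1, which acts against influenza viruses, was dim, with signals of 529.7 and 477 at 9 h and 446 and 585 at 6 h in PRWT cells, 488 and 399.7 at 9 h and 524 and 419 at 6 h in PR2VR cells, against 142 and 430.1 at 9 h and 373 and 610.3 at 6 h in GFP cells. GFP 9 h number 1 was the lowest array, and the difference was 0.39 ± 0.30 SE (adjusted p = 0.79 with the block), the highest of all 46 members.

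All 5 genes of ISG15 conjugation were below 0, with a median of -0.37. ISG15 had signals of 89743 and 88232 at 9 h and 35393 and 136632 at 6 h in PRWT cells, 65135 and 70613 at 9 h and 26141 and 66119 at 6 h in PR2VR cells, against 106648 and 98178 at 9 h and 62778 and 138163 at 6 h in GFP cells. PR2VR was below PRWT and PRWT below GFP in every set. The log2 difference was -0.59 ± 0.14 SE over both forms (adjusted p = 0.16 with the block) and -0.88 ± 0.17 SE for PR2VR alone (adjusted p = 0.062). HERC6, a HERC family protein whose mouse homologue is the ligase for ISG15, had signals of 25634 and 28433 at 9 h and 8599.7 and 23712 at 6 h in PRWT cells, 18816 and 21975 at 9 h and 3370.0 and 27872 at 6 h in PR2VR cells, against 37692 and 44108 at 9 h and 17055 and 30394 at 6 h in GFP cells. At 9 h the fusion arrays were below both GFP arrays, and the difference was -0.87 ± 0.25 SE (adjusted p = 0.26 with the block). A dimmer second HERC6 probe set was at 0.25.

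HERC5, the human ligase for ISG15, had signals of 50040.5 and 49058 at 9 h and 33324 and 60952 at 6 h in PRWT cells, 56709.8 and 38730.3 at 9 h and 35887 and 69211 at 6 h in PR2VR cells, against 65828 and 46610.5 at 9 h and 36480.0 and 89864 at 6 h in GFP cells. It differed by -0.24 ± 0.14 SE (adjusted p = 0.71 with the block), with the constructs overlapping at both hours. UBE2L6, the conjugating enzyme, was at -0.37 and USP18, the protease that removes ISG15, at -0.22.

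The TRIM ligases did not lean one way: 1 of 4 was below 0, with a median of 0.09. TRIM25, the ubiquitin ligase that acts on the sensor RIG-I, had signals of 53157 and 17653 at 9 h and 48879 and 34709 at 6 h in PRWT cells, 47004 and 16328 at 9 h and 28984 and 44036 at 6 h in PR2VR cells, against 42100.1 and 20135 at 9 h and 33985 and 38769 at 6 h in GFP cells. It was at 0.04 ± 0.17 SE (adjusted p = 0.97 with the block), and the arrays of 9 h number 2 were lowest in all 3 constructs. A dimmer second TRIM25 probe set was at -0.66 for fusion cells against GFP cells. Between hours that probe set was at 1.43, against -0.37 for the one used. TRIM22 had signals of 14622 and 18685 at 9 h and 7437 and 13666 at 6 h in PRWT cells, 12977 and 18358 at 9 h and 459 and 18990.4 at 6 h in PR2VR cells, against 16617 and 21271 at 9 h and 9220.1 and 14142 at 6 h in GFP cells. Its -0.63 ± 0.50 SE (adjusted p = 0.80 with the block) came with a value of 458.8 on PR2VR 6 h number 1, far below every other array. TRIM5, which recognises retroviral capsids, was at 0.17 and TRIM21, an antibody receptor in the cytosol, at 0.14.

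The 4 genes of the PARP group were all below 0, with a median of -0.45. PARP14, a mono-ADP-ribosyltransferase, had signals of 10273 and 8158 at 9 h and 5591 and 13338 at 6 h in PRWT cells, 11326 and 8972 at 9 h and 3048 and 12990.0 at 6 h in PR2VR cells, against 15520.3 and 16609 at 9 h and 8816 and 18784 at 6 h in GFP cells. Every fusion array was below the GFP array of its set, by -0.77 ± 0.18 SE (adjusted p = 0.16 with the block), while a second PARP14 probe set was at 0.01. PARP9, which forms a complex with DTX3L, had signals of 3549 and 10419 at 9 h and 3025 and 5255 at 6 h in PRWT cells, 7271 and 9530.0 at 9 h and 2557 and 5770.3 at 6 h in PR2VR cells, against 8262 and 13801 at 9 h and 4505 and 7001 at 6 h in GFP cells. DTX3L, the ubiquitin ligase of that complex, had signals of 22114 and 25627 at 9 h and 12683 and 14137 at 6 h in PRWT cells, 23789 and 24020.4 at 9 h and 24317 and 17332 at 6 h in PR2VR cells, against 28548 and 26637 at 9 h and 20679 and 26488 at 6 h in GFP cells. Fusion means of both genes, which share the promoter match shown above, were below GFP in every set, by -0.55 ± 0.19 SE for PARP9 (adjusted p = 0.43) and -0.35 ± 0.16 SE for DTX3L (adjusted p = 0.60), both with the block. PARP12 was at -0.05.

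RSAD2 (viperin), which makes a chain-terminating ribonucleotide, had signals of 48177 and 29447 at 9 h and 11869 and 18931 at 6 h in PRWT cells, 34609 and 19029.9 at 9 h and 4470.2 and 52884 at 6 h in PR2VR cells, against 55842 and 41727 at 9 h and 25708 and 44726 at 6 h in GFP cells. The fusion mean was below GFP in each set, by -0.89 ± 0.33 SE (adjusted p = 0.46 with the block). CMPK2, its overlapping neighbour on chromosome 2 and a nucleotide kinase, had signals of 5528 and 47270.2 at 9 h and 8857 and 25655 at 6 h in PRWT cells, 48618 and 31938 at 9 h and 6692 and 43152 at 6 h in PR2VR cells, against 34689.9 and 45211 at 9 h and 10585 and 39778 at 6 h in GFP cells. It was at -0.50 ± 0.39 SE (adjusted p = 0.80 with the block), with PRWT 9 h number 1 the lowest array.

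A last group held 10 further ISGs, of which 9 were tested, and 7 of the 9 were below 0 with a median of -0.59. XAF1, a pro-apoptotic partner of XIAP, had signals of 684 and 1588 at 9 h and 289.5 and 296 at 6 h in PRWT cells, 1104 and 852 at 9 h and 192 and 519 at 6 h in PR2VR cells, against 2477 and 2653 at 9 h and 301 and 713 at 6 h in GFP cells. At 9 h the fusion arrays were below both GFP arrays, and over both hours the difference was -0.91 ± 0.28 SE (adjusted p = 0.32 with the block), with -0.80 and 0.08 at other probe sets. LAP3, a leucine aminopeptidase, had signals of 83424 and 65572 at 9 h and 39499 and 52931 at 6 h in PRWT cells, 42174 and 44619.7 at 9 h and 3266 and 49981 at 6 h in PR2VR cells, against 73552 and 68042 at 9 h and 47489 and 62236 at 6 h in GFP cells. The value on PR2VR 6 h number 1 was far below the others.

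LGALS3BP, a secreted glycoprotein that binds galectin-3, had signals of 293 and 443 at 9 h and 355 and 339 at 6 h in PRWT cells, 309.9 and 394 at 9 h and 306 and 332 at 6 h in PR2VR cells, against 327 and 622 at 9 h and 332 and 54.8 at 6 h in GFP cells. Its value on GFP 6 h number 2 was below all others, and the difference was 0.29 ± 0.33 SE (adjusted p = 0.88 with the block). IFI6 (-0.62), IFI35 (-0.74), IFI44 (-0.52), IFI44L (-0.35) and IFI27 (-0.59) were below 0, and NMI stood at 0.10. Where a member had another probe set above the filter, 17 of 23 had the same sign as the set used.

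**Figure D4:**
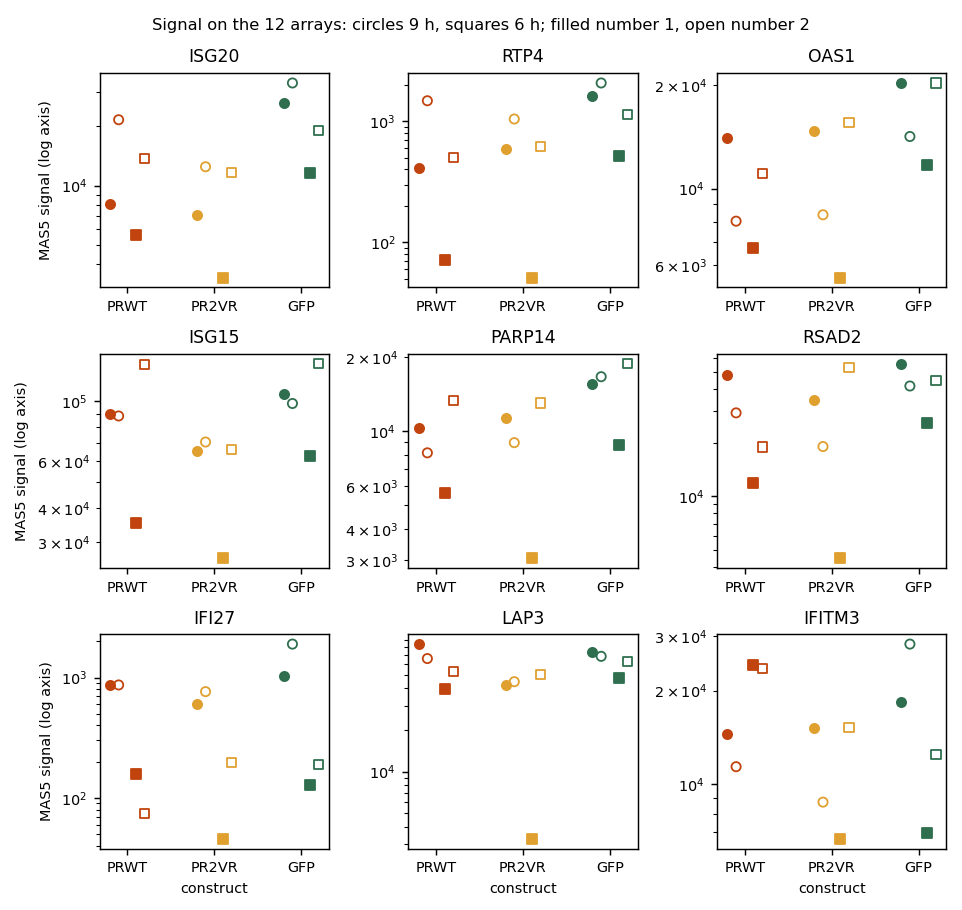
MAS5 signal on a log axis of 9 genes on the 12 arrays, by construct, with circles for 9 h, squares for 6 h, filled symbols for number 1 and open symbols for number 2. ISG20, RTP4, OAS1 and PARP14 are lower in both fusion forms than on the GFP array of the same hour and number, LAP3 has a single low value, and IFI27 separates by hour.

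The 2 forms of the fusion were then set against GFP one at a time. Both comparisons use the same GFP arrays, so they are given side by side. PRWT was below GFP for 37 of 46 members (49.4% of all genes), with a median of -0.25 (0.00 over all genes). In PRWT 0 members passed without or with the block (0.00716%, RARA, in either fit), 9 had an unadjusted p under 0.05 with it, all lower (5.44%), and 19 were below GFP in 4 of 4 sets (8.4%). PR2VR was below GFP for 38 of 46 members (53.1%), with a median of -0.44 (-0.03 over all genes). In PR2VR 0 members passed without the block (0.00716%) and 1, ISG20, with it (0.294%), 21 had an unadjusted p under 0.05 with it, all lower (11.1%), and 19 were below GFP in 4 of 4 sets (9.96%).

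ISG20 was at -0.96 ± 0.23 SE in PRWT (adjusted p = 0.34 with the block) and at -1.44 ± 0.23 SE in PR2VR (adjusted p = 0.04). For PR2VR that p was 0.021 without PR2VR 6 h number 1, 0.0035 without PR2VR 6 h number 2 and between 0.061 and 0.33 without any of the other 10 arrays. RTP4 was at -1.38 ± 0.33 SE in PRWT (adjusted p = 0.34) and -1.37 ± 0.33 SE in PR2VR (adjusted p = 0.15). XAF1 was at -0.91 in both. LAP3 was at -0.09 ± 0.46 SE in PRWT and -1.39 ± 0.46 SE in PR2VR (adjusted p = 0.28), and without PR2VR 6 h number 1 the PR2VR difference, fitted without the block, was -0.41.

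PR2VR was compared with PRWT directly, since a difference between the forms needs its own test. The difference was below 0 for 33 of 46 members (51.3% of all genes), with a median of -0.17, and 0 members passed without or with the block (0.0% in either fit). With the block 7 members had an unadjusted p under 0.05, all lower in PR2VR (6.86%), and 7 were below PRWT in 4 of 4 sets (6.93%): ISG20, IFIT1, IFIT2, PLSCR1, ISG15, UBE2L6 and LAP3. EIF2AK2 and TRIM21 were above PRWT in all 4 sets, a pattern whose share over all genes was not computed. The lean was not shared by the sets, whose medians were 0.07 and -0.27 at 9 h and -0.46 and 0.14 at 6 h.

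LAP3 was at -1.30 ± 0.59 SE, IFITM3 at -0.70 ± 0.34 SE and IFIT1 at -0.39 ± 0.25 SE in PR2VR against PRWT (adjusted p = 1 each, without the block). Medians without PR2VR 6 h number 1 are given from the fit without the block, and were not computed with it. Without the block, where the PRWT and GFP arrays of its set stay in the group means, the median of PR2VR against PRWT was 0.21 (17 of 46 below 0, against 55.0% of all genes), and LAP3 was at -0.32. In that fit the median of PR2VR against GFP was -0.13 (26 of 46 below 0, against 57.0% of all genes) and that of both forms against GFP -0.17 (31 of 46, against 55.4%). The arrays of 9 h number 2 were also left out, with PR2VR 6 h number 1 kept. The median of PR2VR against PRWT was then -0.13 (28 of 46 below 0, against 54.0% of all genes). That of PR2VR against GFP was -0.40 (35 of 46, against 53.6%). That of both forms against GFP was -0.35 (35 of 46, against 52.8%). In the sets other than 6 h number 1, the PR2VR median against GFP was -0.26 and -0.47 at 9 h and -0.31 at 6 h number 2. The median of PRWT against GFP, fitted without the block, was -0.01 without PRWT 6 h number 1 and -0.45 at its lowest.

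Without PR2VR 6 h number 1, 8 members passed for both forms against GFP with the block (1.78% of all genes): HERC6, IFI6, ISG15, ISG20, OAS1, PARP14, RSAD2 and RTP4. Without PR2VR 6 h number 2, 13 passed (2.58%), and without any other single array 0 did. Dropping either array left 1 set with 2 arrays, and the count of all genes passing moved too, to 249 and 360, against 44 with all arrays.

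At 9 h alone the fusion difference had a median of -0.29 (-0.04 over all genes), with 35 of 46 below 0 (54.3% of all genes), 0 members passing (0.00716%) and 8 with an unadjusted p under 0.05 with the block, all lower (6.32%). ISG20 was at -1.40 ± 0.28 SE (adjusted p = 0.30) and XAF1 at -1.29 ± 0.39 SE (adjusted p = 0.57, both with the block). At 6 h alone it had a median of -0.46 (0.00 over all genes), with 34 of 46 members below 0 (49.6% of all genes). In that comparison 0 members passed (0.00716%), and 13 had an unadjusted p under 0.05 with the block (5.63%), 12 of them lower and IFITM3 higher. RTP4 was at -1.60 ± 0.41 SE and ISG20 at -0.99 ± 0.28 SE (adjusted p = 0.49 and 0.57 with the block). Without PR2VR 6 h number 1 the 6 h median was -0.07 without the block (-0.04 over all genes). There 27 of 46 members were below 0 (54.2% of all genes), and the median with the block was not computed.

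Whether the fusion difference itself changed with the hour was tested as an interaction. Its median was 0.12 (-0.02 over all genes), with 18 of 46 members below 0 (52% of all genes). For 0 members did it pass (0.0%), and 1, IFITM3, had an unadjusted p under 0.05 without the block (0.759%). IFITM3 had an interaction of -1.63 ± 0.59 SE, IFI44L of -1.32 ± 0.68 SE and LGALS3BP of -1.18 ± 0.77 SE (adjusted p = 1 each, without the block). IFI44L, like IFITM3, was above GFP in both 6 h sets and below it in both 9 h sets, with signals of 1341 and 1167 at 9 h and 222 and 435 at 6 h in PRWT cells, 827 and 869.5 at 9 h and 316 and 964 at 6 h in PR2VR cells, against 1963 and 2319 at 9 h and 201 and 513 at 6 h in GFP cells.

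Antiviral genes were higher at 9 h than at 6 h on balance, with IFI27 the 1 that passed. How far they were higher depended on the 6 h set, as given below. Over the 3 constructs the median difference was 0.59 (0.13 over all genes), and 7 of 46 members were below 0 (39.4% of all genes). Without the block 1 member passed (0.0788% of all genes) and 17 had an unadjusted p under 0.05, all higher at 9 h (15.1%). With the set as a random block 0 passed (0.0%), and 16 members had an unadjusted p under 0.05 (5.49%). All 6 arrays of 9 h were above all 6 arrays of 6 h for 4 members, OAS2, OAS3, PLSCR1 and IFI27 (1.25%).

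IFI27, a small mitochondrial and membrane protein widely used as a marker of interferon exposure, had signals of 860.4 and 868 at 9 h and 159 and 73.7 at 6 h in PRWT cells, 598 and 764 at 9 h and 45.7 and 198 at 6 h in PR2VR cells, against 1023 and 1898 at 9 h and 127 and 189 at 6 h in GFP cells. Every 9 h array was at least 597.9, and the highest 6 h array was at 197.8. IFI27 rose by 2.43 ± 0.34 SE (log2) at 9 h over 6 h (adjusted p = 0.03 without the block), but with the set as a random block it did not pass (± 0.50 SE, adjusted p = 0.41). Without the block it passed when PR2VR 6 h number 2 or GFP 9 h number 1 was left out, and had an adjusted p of 0.05 to 0.14 without any of the other 10 arrays. XAF1 was at 1.79 ± 0.32 SE (adjusted p = 0.067), OAS3 at 1.74 ± 0.34 SE (adjusted p = 0.084) and IFI44L at 1.62 ± 0.32 SE (adjusted p = 0.09). A dimmer second OAS3 probe set differed by -0.11 between hours, and the other XAF1 probe sets by 1.40 and 0.80. Of 23 other probe sets of members above the filter, 18 had the same sign between hours as the one used.

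Hours and sets are nested, since each set belongs to 1 hour, and the arrays of 9 h number 2 are those that stood apart in RNA quality and brightness. Without those 3 arrays the median difference between hours was 0.42 (0.08 over all genes), and IFI27 was at 2.23. The part of RNA quality in the difference was not tested. Without PR2VR 6 h number 1 the median was 0.30 (0.15 over all genes), with 14 of 46 members below 0 (37.7% of all genes). The member median levels (log2) of 6 h number 1 were 13.08 in PRWT, 12.37 in PR2VR and 13.36 in GFP cells. Those of 6 h number 2 were 14.00, 14.01 and 14.21, within the range of the 9 h arrays (13.84 to 14.38). In GFP cells the median difference between hours was 0.08 without 6 h number 1 and 0.94 without 6 h number 2.

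Within constructs the hours differed in the same direction. In GFP cells the median was 0.57 (0.14 over all genes), and 9 of 46 members were below 0 (40.2% of all genes). There 0 passed without the block (0.0%), with 7 at an unadjusted p under 0.05 (4.85%). Both 9 h arrays were above both 6 h arrays in GFP cells for 22 members (25.2% of all genes). In fusion cells the median was 0.56 (0.11 over all genes), and 6 of 46 members were below 0 (41.2%). There 0 passed (0.0%), with 14 at an unadjusted p under 0.05 (9.01%). All 4 fusion arrays of 9 h were above all 4 of 6 h for 5 members (3.87%), the 4 named above and XAF1. IFI27 was at 2.28 ± 0.41 SE in fusion cells and 2.74 ± 0.58 SE in GFP cells (adjusted p = 0.18 and 0.94). OAS3 was at 1.79 ± 0.41 SE in fusion cells and 1.63 ± 0.59 SE in GFP cells (adjusted p = 0.41 and 0.94).

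**Figure D5:**
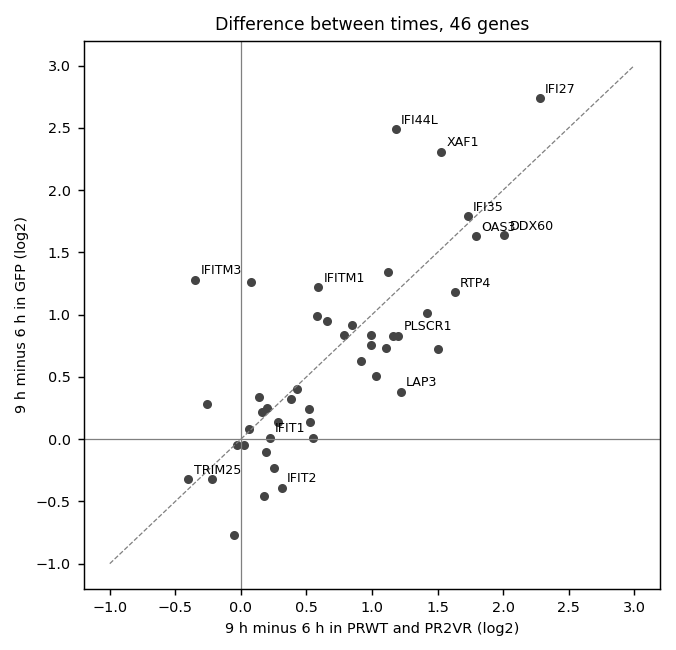
Log2 difference of 9 h minus 6 h for the 46 antiviral genes in PRWT and PR2VR cells together (horizontal axis) and in GFP cells (vertical axis), with the line of equal values dashed and genes named where they are mentioned or lie apart. IFI27 is highest in both, IFI44L, XAF1 and IFITM3 lie above the line, and most genes are above 0 on both axes.

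Genes around the antiviral effectors were read from 5 lists, beside an all-gene median of -0.02 with 52.4% below 0. Of the interferons and their receptors 9 of 12 tested were below 0 in fusion cells, with a median of -0.51. Of these, IFNAR2, a chain of the type I interferon receptor, and IFNL1, a type III interferon, passed with the block and were lower. IFNAR2 had signals of 7759 and 5407 at 9 h and 4444 and 4282 at 6 h in PRWT cells, 8065 and 3411 at 9 h and 7402 and 5979 at 6 h in PR2VR cells, against 14697 and 9789 at 9 h and 10738 and 10341 at 6 h in GFP cells. Every fusion array was below every GFP array, with an adjusted p of 0.043 with the block and 0.75 without it. IFNL1 had signals of 2257 and 4796 at 9 h and 846 and 7158 at 6 h in PRWT cells, 3372 and 3811 at 9 h and 762 and 2393 at 6 h in PR2VR cells, against 7960.4 and 6889 at 9 h and 2834 and 19089.8 at 6 h in GFP cells. It was lower by -1.53 ± 0.25 SE with the block (adjusted p = 0.032) and had an adjusted p of 1 without it.

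IFNB1, the main early type I interferon, had signals of 4318 and 4955 at 9 h and 4744 and 52293 at 6 h in PRWT cells, 3927 and 4478 at 9 h and 620.3 and 29223 at 6 h in PR2VR cells, against 5196 and 4233 at 9 h and 7301 and 22569 at 6 h in GFP cells. It was highest on the 3 arrays of 6 h number 2, and the constructs overlapped. IFNG, with signals of 15.3 to 303.2, was not tested. Of JAK, STAT and IRF genes 8 of 11 were below 0 (median -0.33), and of the nucleic acid sensors and adaptors 11 of 15 (median -0.11), with 0 passing in either list without or with the block. With the block, 2 genes of the first list and 3 of the second had an unadjusted p under 0.05 (8.4% of all genes tested).

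Targets typical of interferon gamma were below 0 for 16 of 17 genes, with a median of -0.47. IDO1, which degrades tryptophan, had signals of 1034 and 1617 at 9 h and 385 and 1146 at 6 h in PRWT cells, 816 and 884 at 9 h and 217 and 823 at 6 h in PR2VR cells, against 3195 and 5269 at 9 h and 1126 and 1799 at 6 h in GFP cells. It was lower in fusion cells by -1.60 ± 0.22 SE with the block (adjusted p = 0.018) and had an adjusted p of 0.52 without it. WARS1, the tryptophanyl-tRNA synthetase, was lower by -0.95 ± 0.15 SE with the block (adjusted p = 0.032), with an adjusted p of 1 without it. SOCS1, an inhibitor of JAK kinases, was 1 of 8 negative regulators tested, of which 6 were below 0 with a median of -0.05. SOCS1 had signals of 609 and 2214 at 9 h and 922 and 2792 at 6 h in PRWT cells, 1278 and 1679.5 at 9 h and 934 and 1519 at 6 h in PR2VR cells, against 3989 and 3765 at 9 h and 4894 and 8415 at 6 h in GFP cells. It was lower by -1.84 ± 0.26 SE with the block (adjusted p = 0.019), against an adjusted p of 0.37 without it, and all fusion arrays were below all GFP arrays. In PR2VR alone IFNL1, DHX58, IDO1 and SOCS1 passed with the block, all lower, and in PRWT alone 0 genes of these 5 lists did.

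Between hours GBP1, a guanylate-binding GTPase among the interferon gamma targets, rose by 2.37 ± 0.35 SE at 9 h (limma adjusted p = 0.033 without the block). In that list 3 of the 17 genes were below 0, against 39.4% of all genes. With the set as a random block 0 genes of that list passed. The interferons and receptors did not lean the same way, with 7 of 12 below 0 and a median of -0.04 (0.13 over all genes). The JAK, STAT and IRF genes had a median of -0.06.

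Several of the antiviral genes lie side by side in the genome. The list holds IFIT2, IFIT3, IFIT1 and IFIT5 on chromosome 10, IFITM2, IFITM1 and IFITM3 on chromosome 11, OAS1, OAS3 and OAS2 on chromosome 12, and the pairs MX2 and MX1, HERC6 and HERC5, SAMD9 and SAMD9L, and IFI44L and IFI44. Values of neighbours were not alike in every case: MX2 was at -0.39 and MX1 at 0.39, HERC6 at -0.87 and HERC5 at -0.24, and IFITM1 at -0.24 and IFITM2 at 0.20 for fusion cells against GFP cells. By promoter, the 30 tested genes with a response element match had a median of -0.32 (23 below 0) and the 9 without one a median of -0.50 (8 below 0).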

How the data were processed

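The authors' deposited intensity values are MAS5 signals on a linear scale, per the submitters' processing notes (MAS5 version: not given in the sources used here). Values ran between 0.5 and 289408.3, with 54675 probe sets an array. After trimming 2% at each end all arrays had a mean of 1500.2, so they were not normalized further. Depth has no meaning for arrays; their number, 2 a group, limits the precision. Platform annotation gave 41091 probe sets 1 symbol, 1801 several and 11721 none; 62 were controls. Each gene was read from the one-symbol probe set with the highest mean of log2(signal + 62.5), the offset being the 20th percentile of all signals. Genes with a mean below the 40th percentile (log2 7.85, a signal of 168.9) were left out.

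Contrasts of the 6 groups were fitted to all 13959 genes and 12 arrays with limma 3.58.1 in R 4.3.3 (lmFit, eBayes with a trend), with Benjamini-Hochberg adjustment. The design had no block; the labels number the replicates, and deviations of same-numbered arrays correlated by 0.56, 0.60 and 0.63 at 9 h (PRWT with PR2VR, PRWT with GFP, PR2VR with GFP) and 0.21, 0.36 and 0.15 at 6 h, so values with the set as a block are given beside them (a random block between hours). On 5 simulated data sets with 200 of 13959 genes changed by 2 (log2), the fit of both forms against GFP recovered 84.9% without and 83.9% with the block, and 4.7% and 5% of calls were false. The simulated noise was independent between arrays, with no set effect. Member differences in that comparison ran from -1.37 to 0.39, smaller than the change simulated. These rates therefore do not describe either fit for the members.

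The genes, their role groups, the pathway lists and the markers were chosen with earlier results of these data known. Array values are printed for up to 2 genes a role group, by highest mean signal, and for the genes with the smallest p-values of each contrast. Alternatives were other offsets, filters, quantile normalization, all probe sets averaged, no variance trend, left-out arrays and the block.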

Additional observations from a re-analysis of the deposited data

Results flagged for a closer look

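Dixon's test for a single far value was run within constructs and within hours on the median level of the antiviral genes and on 18 genes named in the report, 95 groups in all. It marked 9, and chance alone marks about 1 group in 20. All are levels on the log2 scale, and each was the lowest of its group. The groups of a construct mix 2 hours.

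The median of the antiviral genes was 12.37 on PR2VR 6 h number 1, against 13.85 on the next PR2VR array. On GFP 6 h number 1 it was 13.36, against 14.21 on the next GFP array. PR2VR 6 h number 1 also held 4 of the marked values of single genes: LAP3 at 11.7, against 15.37 on the next PR2VR array and 15.27 on the next 6 h array (marked within both groups), ISG15 at 14.68, against 15.99, and IFI44L at 8.56, against 9.80. HERC6 was at 13.08 on PRWT 6 h number 1, against 14.54 on the next PRWT array. DTX3L was at 14.09 on PR2VR 6 h number 2, against 14.54 on the next PR2VR array. LGALS3BP was at 6.87 on GFP 6 h number 2, against 8.52 on the next 6 h array.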

How the results depend on the processing

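Direction held for the 18 members with the smallest p-values, on which the alternatives were run, and for the member medians under the other offsets, filters, normalization, probe sets, variance trend and the replicate block. It turned for the medians of PR2VR against PRWT and of the interaction where single arrays were left out, and for the first without 6 h number 1 (0.05). The replicate block, for which the pairing of numbers is the basis, moved the count of members passed to 1 for both forms and for PR2VR against GFP, and to 0 between hours, and changed no other call of a member. IFNAR2, IFNL1, IDO1, WARS1 and SOCS1, and DHX58 in PR2VR, passed only with it and GBP1 only without it. Between hours the count was also 0 with the filter at the 60th percentile, with quantile normalization and without the arrays of 9 h number 2. The 9 h median was -0.26 with an offset of 250 or the 60th percentile, -0.25 with quantile normalization, -0.36 with all probe sets averaged and -0.31 without 9 h number 2. With the block, members passed for both forms and for PR2VR were 0 with no variance trend and 0 without 9 h number 2. Without the 3 arrays of 6 h number 1, an alternative chosen after seeing the data, they were 0 for both forms, 4 for PR2VR and 1 for PR2VR against PRWT. Leaving out each array in turn, the median ran between -0.56 and -0.15 for both forms, -0.45 and -0.01 for PRWT, -0.79 and -0.13 for PR2VR, -0.44 and 0.21 for PR2VR against PRWT, -0.48 and -0.19 at 9 h, -0.91 and -0.02 at 6 h, -0.29 and 0.58 for the interaction, 0.30 and 0.82 between hours, 0.08 and 0.94 in GFP and 0.20 and 0.92 in fusions. Counts of members passed also moved with the array left out in some comparisons, without and with the block. With the block they ran between 0 and 13 for both forms, 0 and 2 for PRWT, 0 and 17 for PR2VR and 0 and 7 for PR2VR against PRWT. An arm left with 1 array is assumed to vary like the others. Cause was not tested. Signals near the offset limit RTP4, IFI27, IFI35 and MX1.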
